A study of Mus musculus with 10 samples.

Results

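The transcripts described here encode the machinery that copies DNA and the machinery that divides the cell. They form a list of 50 genes, 24 for DNA replication and 26 for mitosis, listed by gene symbol for their known roles. The list was drawn up with earlier results of these data known. Each gene was found in the table of 35275 genes measured in whole lungs of CD1 mouse pups at postnatal day 6 (P6). RNA-Seq libraries of 8 pups were compared. The question behind the comparison was what losing 1 Dll4 copy does to lung transcripts at the age when alveoli form. The 4 Dll4+/- pups (replicates 1 to 4) had 1 Dll4 allele replaced by a lacZ reporter, and the 4 Dll4+/+ littermate controls (replicates 3 to 6) had both alleles. The allele is missing in every cell type, and Dll4, a ligand of Notch receptors, is made mainly by endothelial cells, so a whole lung mixes the cells that make it with those that do not. A further 2 Dll4+/+ samples, replicates 1 and 2, were not analysed here. All values are FPKM (fragments mapped to a gene, scaled to its exon length and to the depth of the library), as the authors deposited them.

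A dividing cell first loads the MCM helicase onto replication origins, then activates it and copies the genome in S phase, and later builds a spindle and separates the copies. The genes of both steps are switched off in resting cells. Replication genes are known targets of E2F factors, which Rb proteins hold in check, and many mitosis genes are bound by the DREAM and MuvB complexes through an element named CHR. The lung at this age is forming alveoli, and many of its cells divide. In bulk RNA, fewer dividing cells and less RNA per dividing cell cannot be told apart.

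The libraries held 17201662 to 22927840 fragments, recovered from the FPKM steps. Dll4 itself had 11.4, 15.6, 20.7 and 11.6 FPKM in Dll4+/- replicates 1 to 4, against 22.7, 25.8, 30.7 and 31.3 FPKM in Dll4+/+ replicates 3 to 6 (14.8 ± 4.36 and 27.6 ± 4.12, SD, n = 4 each), and the genotypes did not overlap (two-sided exact permutation p = 0.0286, the smallest that 4 against 4 libraries allow, limma log2 fold change -0.88, SE 0.19, adjusted p = 0.811). Endothelial markers such as Pecam1 and Cdh5 were present in every library, at 107 FPKM or more and 70.3 FPKM or more. Dll4+/- replicate 2 was labelled female but had 0.273 FPKM of Xist and 20.3 FPKM of the Y-linked Ddx3y. Dll4+/- replicate 1 stood apart from all other libraries in the genes described here, so results are given with and without it.

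All 50 genes had their lowest value of the 8 libraries in Dll4+/- replicate 1, and the other 7 libraries, Dll4+/- and Dll4+/+ alike, lay close together. Over all 13610 genes tested, 35.3% had their lowest value in that library. The genes were 8.94-fold lower there at the median (range 2.92 to 17.0) than the median of the other 7 libraries. In 49 of the 50 genes Dll4+/- replicate 1 was at least 2-fold below the lowest of the other libraries, a gap seen in 4.5% of all genes, and in 40 it was at least 4-fold below, against 1.86% of all genes. These counts describe a single library, already known to stand apart in these genes, and carry no test. Among the other 7 libraries the highest value of a gene was 1.43 times its lowest at the median. Within Dll4+/+ lungs the SD of log2(FPKM + 1) was 0.112 at the median of the 50 genes and 0.154 at the median of all genes. The summed FPKM of the 24 replication genes was 82.1 in Dll4+/- replicate 1 and 395 to 512 in the remaining Dll4+/- lungs, against 470 to 508 in Dll4+/+ lungs. That of the 26 mitosis genes was 59.5 in Dll4+/- replicate 1 and 437 to 527 in the remaining Dll4+/- lungs, against 500 to 548 in Dll4+/+ lungs.

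**Figure D1:**
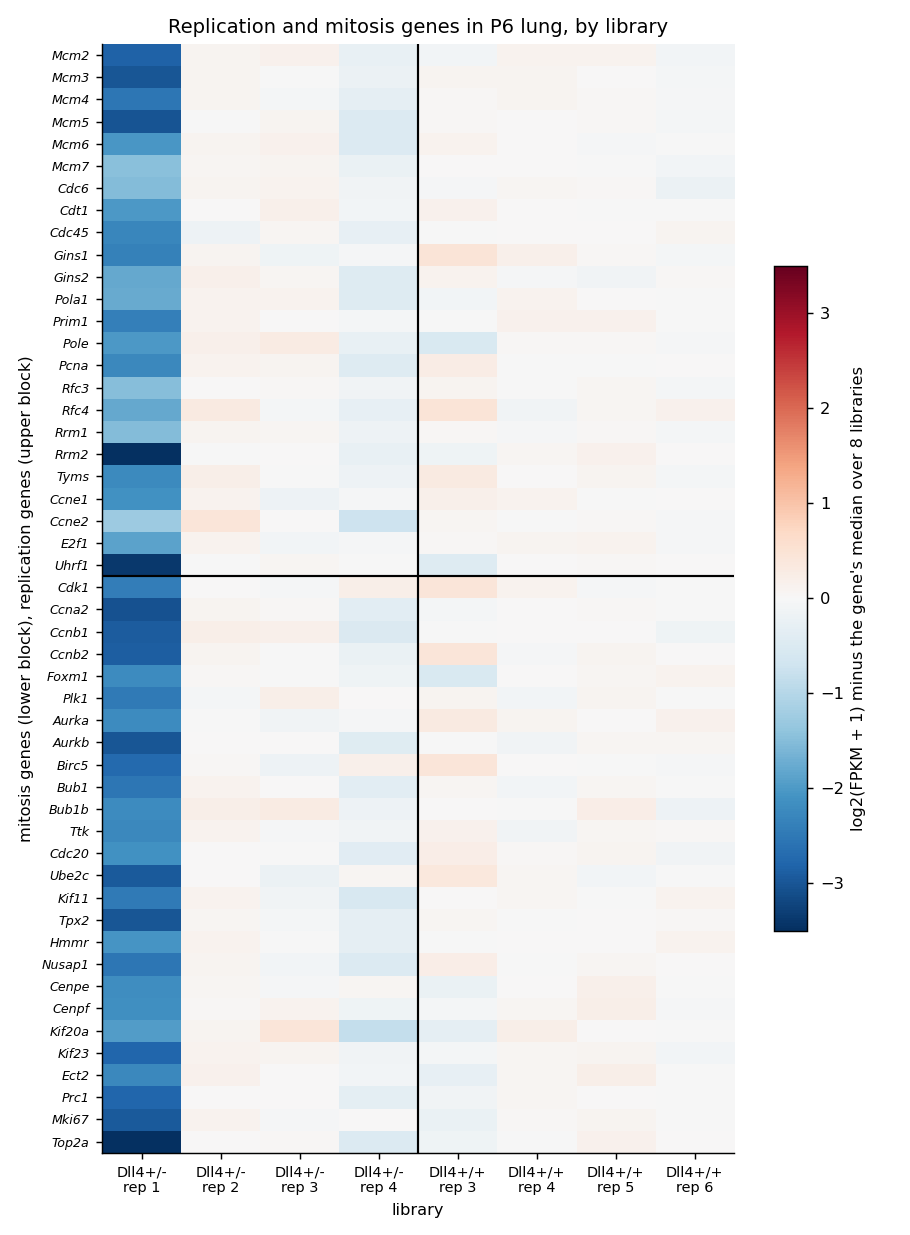
Level of each of the 50 genes (rows) in each of the 8 libraries (columns), as log2(FPKM + 1) minus the gene's median over the libraries, with Dll4+/- replicates 1 to 4 left of the vertical line and Dll4+/+ replicates 3 to 6 right of it. The column of Dll4+/- replicate 1 is the lowest in all 50 rows, and Dll4+/- replicate 4 is the lowest of the remaining columns in 35.

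No gene of either list passed the comparison of the genotypes. In the limma fit over all genes, 0 genes had an adjusted p under 0.05 (0% of those tested), and 0 of the 50 did. At an unadjusted p under 0.05, 260 genes (1.91%) were lower in Dll4+/- lungs, and again none of the 50 was among them (smallest unadjusted p among the 50 = 0.125, limma adjusted p 0.811 to 0.851). The log2 fold changes were below 0 in 50 of 50 genes, against 54.1% of all genes. Their median was -0.62 for replication genes and -0.70 for mitosis genes, and -0.02 over all genes. Aurka, the kinase of the spindle poles, was the only one of the 50 whose Dll4+/- values all lay below all Dll4+/+ values, which 1.69% of all genes did. It had 3.12, 17.9, 16.6 and 17.6 FPKM in Dll4+/- lungs, against 22.8, 19.4, 18.2 and 20.03 FPKM in Dll4+/+ lungs (log2 fold change -0.74, SE 0.44, limma adjusted p = 0.811, exact permutation p = 0.0286). The gap between 17.9 and 18.2 FPKM was small.

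Without Dll4+/- replicate 1 the genotypes lay together. The median log2 fold change was then -0.07 for replication genes and -0.08 for mitosis genes, 39 of the 50 genes were below 0, and 48% of all genes were. Of the 50 genes 0 had an unadjusted p under 0.05, against 2.67% of all genes, and 0 an adjusted p under 0.05. The 11 genes at or above 0 were Mcm7, Cdc6, Pole and Uhrf1 among replication genes, and Foxm1, Plk1, Bub1b, Cenpe, Kif23, Ect2 and Mki67 among mitosis genes. Leaving out Dll4+/- replicate 4 as well gave medians of 0.05 and 0.03, with 19 of the 50 genes below 0, against 43.8% of all genes. Leaving out Dll4+/- replicate 2, whose sex transcripts went against its label, instead gave medians of -0.84 and -0.95, with 2 of the 50 genes under an unadjusted p of 0.05, against 7.03% of all genes, and 0 under an adjusted one.

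**Figure D2:**
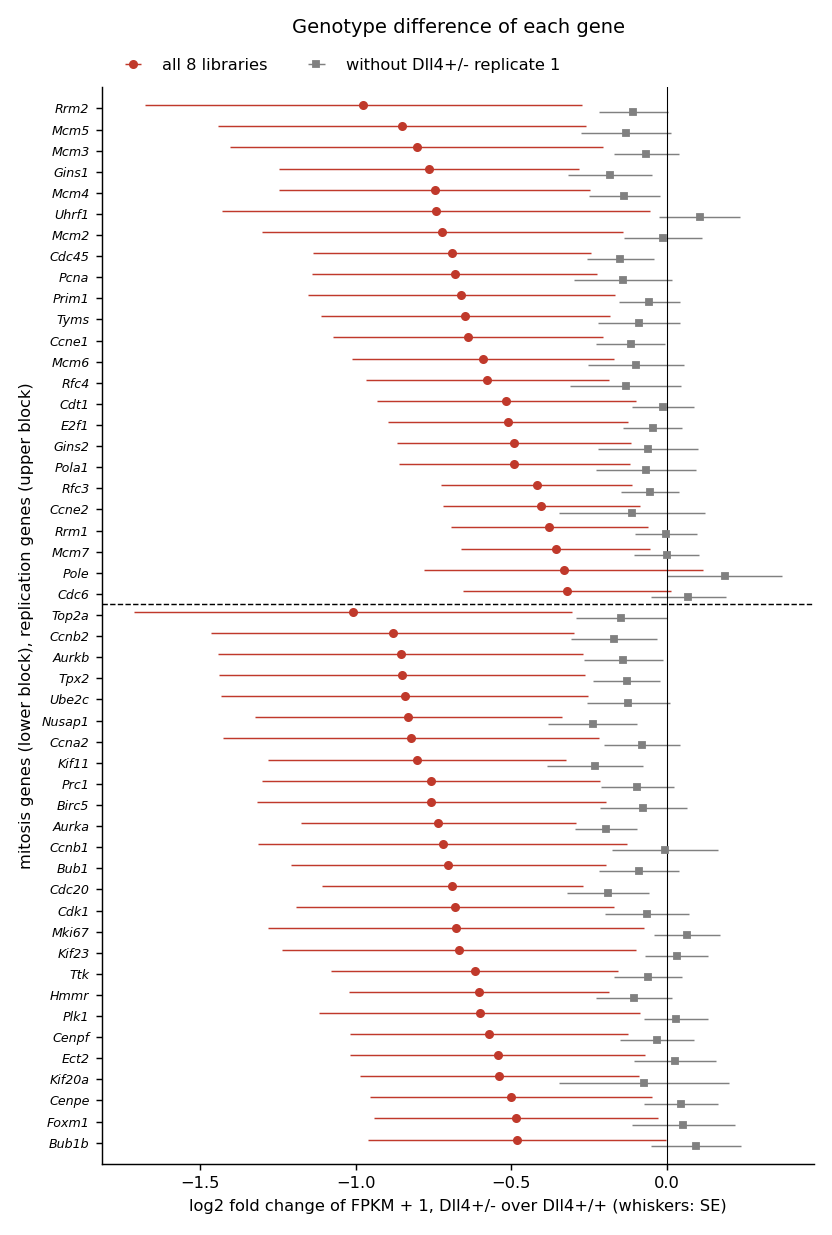
Log2 fold change of FPKM + 1, Dll4+/- over Dll4+/+, for each of the 50 genes, with its SE as whiskers, for all 8 libraries (circles) and without Dll4+/- replicate 1 (squares). The circles lie between -1.01 (Top2a) and -0.32 (Cdc6), and the squares between -0.24 (Nusap1) and 0.19 (Pole).

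Dll4+/- replicate 4 was the lowest of the remaining 7 libraries in 35 of the 50 genes, where 28.7% of all genes had their lowest value of the 7 in that library. The size of the gap was modest. The ratio of its FPKM to the median of the other 6 libraries was 0.821 at the median, 0.830 for replication and 0.805 for mitosis genes. It was lowest for Kif20a, a kinesin of the spindle midzone, at 0.479, and for Ccne2, a cyclin partner of Cdk2, at 0.509. Kif20a had 1.10, 7.78, 10.1 and 3.61 FPKM in Dll4+/- lungs, against 5.59, 8.40, 7.27 and 7.18 FPKM in Dll4+/+ lungs. Cdk1, Birc5, Ube2c and Cenpe were at or above the median there, with ratios of 1.15, 1.128, 1.04 and 1.05.

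The comparison of the lists with each other rested on Dll4+/- replicate 1 too. The mean centred log2(FPKM + 1) of the mitosis genes was -2.56 in that library and that of the replication genes -2.19, a difference of -0.37. In the other libraries the same difference was -0.03, -0.03 and 0.02 in Dll4+/- replicates 2, 3 and 4, against -0.02, -0.02, 0.03 and 0.03 in Dll4+/+ replicates 3 to 6. Fold for fold, mitosis genes were 10.1-fold lower in Dll4+/- replicate 1 at the median (4.71 to 17.0) and replication genes 7.55-fold lower (2.92 to 15.8). At least 8-fold were 19 of 26 mitosis and 10 of 24 replication genes. Under 4-fold were 0 mitosis and 4 replication genes, namely Mcm7, Rrm1, Rfc3 and Ccne2.

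**Figure D3:**
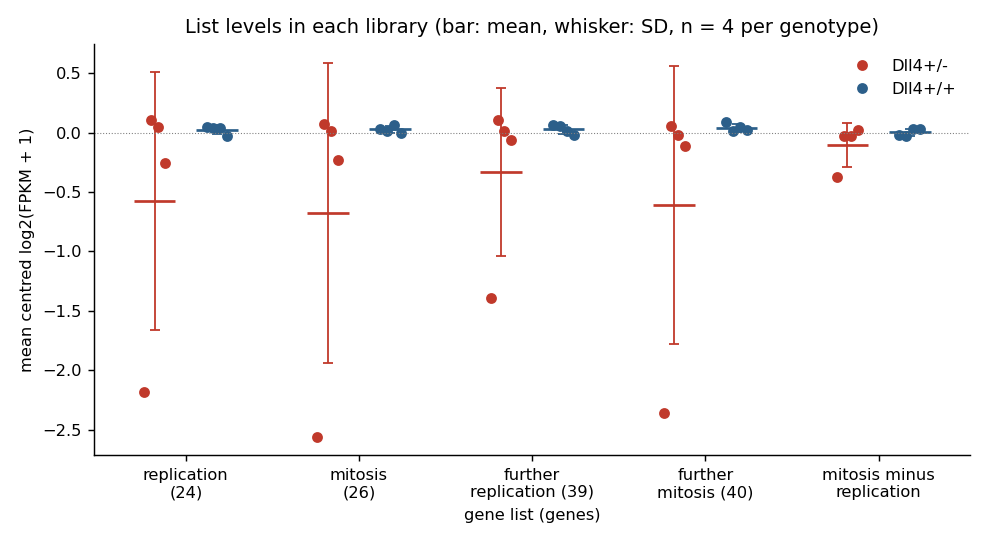
Mean centred log2(FPKM + 1) of each gene list in each library, Dll4+/- left of Dll4+/+ in each pair, with the mean and SD of 4 libraries. The last pair is the mitosis level minus the replication level. Dll4+/- replicate 1 is the low point in every list (-2.19 for replication, -2.56 for mitosis), and all other points of these 2 lists lie between -0.25 and 0.10.

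The promoters of the lists differed in their sequence. The sequence was not used to choose the genes, but genes of these roles are known E2F or CHR targets, as given above. The counts are thus a description and no independent result. RefSeq promoters (GRCm38.p6, 250 bases before to 50 after a start) were at hand for 40 of the 50 genes, 19 replication and 21 mitosis genes. An E2F site, searched as TTTCCCGC, TTTGGCGC, TTTCGCGC or TTTGCCGC on both strands, was in 9 of 19 replication genes (47.4%) and in 1 of 21 mitosis genes (4.76%), Cdk1, against 2.60% of 27025 genes in the table. The CHR word TTTGAA, on both strands, was in 16 of 21 mitosis genes (76.2%) and in 2 of 19 replication genes (10.5%), Cdc45 and Mcm2, against 20.2% of all genes. The related words TTTAAA and TTCGAA were in 6 and 3 of the mitosis genes (28.6% and 14.3%). They were in 4 and 2 of the replication genes (21.1% and 10.5%), against 14.9% and 1.80% of all genes. CCAAT, the NF-Y word, was in 19 of 21 mitosis genes (90.5%) and 13 of 19 replication genes (68.4%), against 41.1% of all genes. CHR and CCAAT stood together in 16 mitosis genes (76.2%), against 7.97% of all genes. Counted over single promoters, 2.26% of 32851 held an E2F site, 17.9% the CHR word and 37.4% CCAAT. A match is a string of letters and not a shown binding site.

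**Figure D4:**
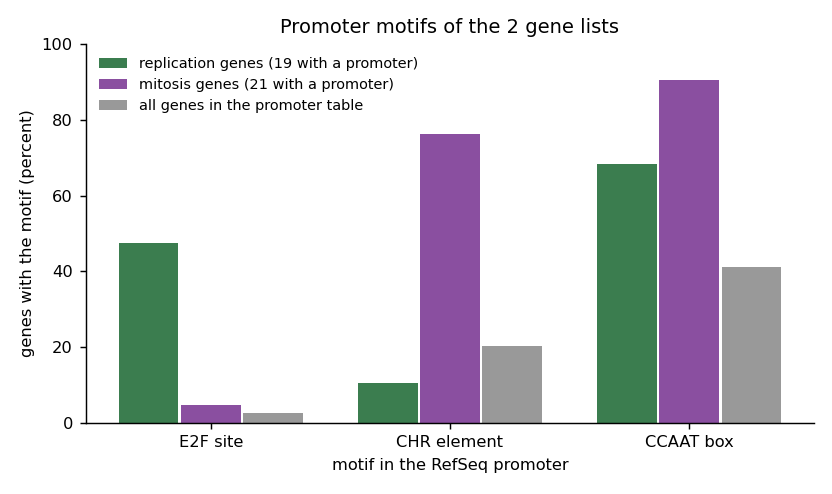
Percent of genes whose RefSeq promoter held an E2F site, the CHR word or CCAAT, for replication genes (19 with a promoter), mitosis genes (21) and all genes of the promoter table. E2F sites stand at 47.4% in replication genes and 4.76% in mitosis genes, and the CHR word at 10.5% and 76.2%.

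The 160 bases before the start are shown for 3 replication genes whose E2F sites lie in them, 5′ to 3′, with E2F sites and CCAAT (or its complement ATTGG) in capitals. The windows are Mcm5 at chr8:75109349-75109508 (plus strand), Mcm6 at chr1:128359706-128359865 (minus strand) and Pola1 at chrX:93632156-93632315 (minus strand). In Mcm5 and in the upstream site of Mcm6, an E2F word on each strand overlaps the other, so the capitals run through both.
Mcm5: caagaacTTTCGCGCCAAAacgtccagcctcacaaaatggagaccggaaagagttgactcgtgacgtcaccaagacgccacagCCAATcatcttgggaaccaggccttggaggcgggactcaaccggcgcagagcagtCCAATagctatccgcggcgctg
Mcm6: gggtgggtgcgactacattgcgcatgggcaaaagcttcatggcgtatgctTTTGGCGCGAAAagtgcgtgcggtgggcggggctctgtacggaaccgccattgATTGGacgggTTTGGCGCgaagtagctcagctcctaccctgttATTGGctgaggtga
Pola1: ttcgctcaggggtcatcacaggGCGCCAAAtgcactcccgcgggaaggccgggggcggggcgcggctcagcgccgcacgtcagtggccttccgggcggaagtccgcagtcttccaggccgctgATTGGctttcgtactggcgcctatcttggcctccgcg

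The same stretch is shown for 4 mitosis genes in which the CHR word (TTTGAA, or TTCAAA on the other strand) lies shortly before the start, with CHR and CCAAT words in capitals. The windows are Cdc20 at chr4:118437344-118437503 (minus strand), Top2a at chr11:99024190-99024349 (minus strand), Kif11 at chr19:37376222-37376381 (plus strand) and Ube2c at chr2:164769769-164769928 (plus strand).
Cdc20: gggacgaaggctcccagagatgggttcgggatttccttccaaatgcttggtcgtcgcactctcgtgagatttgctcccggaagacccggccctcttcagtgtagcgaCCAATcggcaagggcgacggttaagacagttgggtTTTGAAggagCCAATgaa
Top2a: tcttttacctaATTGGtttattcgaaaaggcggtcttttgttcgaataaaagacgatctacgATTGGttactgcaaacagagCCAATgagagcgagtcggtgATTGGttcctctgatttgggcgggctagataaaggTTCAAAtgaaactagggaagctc
Kif11: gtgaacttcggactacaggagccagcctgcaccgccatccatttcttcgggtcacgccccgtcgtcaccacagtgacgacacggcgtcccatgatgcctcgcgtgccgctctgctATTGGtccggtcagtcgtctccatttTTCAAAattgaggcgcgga
Ube2c: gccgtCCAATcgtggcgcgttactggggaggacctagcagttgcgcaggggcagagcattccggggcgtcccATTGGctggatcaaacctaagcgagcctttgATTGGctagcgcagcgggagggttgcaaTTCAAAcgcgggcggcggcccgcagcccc

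Cdk1, at chr10:69352913-69353072 (minus strand), held both kinds of word, an E2F site followed by CCAAT and CHR words in turn.
Cdk1: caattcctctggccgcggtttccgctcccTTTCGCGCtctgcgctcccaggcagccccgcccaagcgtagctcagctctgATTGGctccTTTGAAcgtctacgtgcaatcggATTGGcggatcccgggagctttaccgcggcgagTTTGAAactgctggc
Within a list, genes with and without the motif were both low in Dll4+/- replicate 1. The 9 replication genes with an E2F site were 6.54-fold lower at the median (2.92 to 15.8) and the 10 without it 7.71-fold (3.13 to 15.6). The 16 mitosis genes with the CHR word were 9.14-fold lower (4.71 to 17.0) and the 5 without it 11.6-fold (9.33 to 12.1). Of those 5, Birc5, Ccnb1 and Cenpe held the related word TTTAAA and Bub1 held TTCGAA, and only Nusap1 held neither. The split is thus by the exact word TTTGAA and does not set genes with any CHR-like word apart. These ranges overlapped.

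The licensing genes load the helicase onto origins. Mcm3, a helicase subunit and the most abundant of them, had 2.87, 31.9, 29.7 and 25.5 FPKM in Dll4+/- lungs, against 31.8, 31.6, 29.8 and 28.2 FPKM in Dll4+/+ lungs (22.5 ± 13.4 and 30.3 ± 1.69, SD, n = 4 each). Mcm5 had 1.96, 22.8, 24.7 and 15.96 FPKM in Dll4+/- lungs, against 23.3, 22.9, 23.7 and 21.6 FPKM in Dll4+/+ lungs. In both, the first Dll4+/- lung was far below the rest and the others overlapped with Dll4+/+ lungs. The log2 fold changes were -0.80 (SE 0.60) and -0.85 (SE 0.59), with a limma adjusted p of 0.811 for each. Cdc6, which brings the helicase to the origin, had 0.546, 3.74, 3.85 and 3.12 FPKM in Dll4+/- lungs, against 3.35, 3.65, 3.57 and 2.85 FPKM in Dll4+/+ lungs. Its fold change on log2(FPKM + 1) was the nearest 0 of the 50 genes (-0.32, SE 0.33, limma adjusted p = 0.815). That scale understates the change of so low a gene, and Cdc6 was 6.54-fold lower in Dll4+/- replicate 1. Cdt1, its partner in loading, had 2.65 FPKM in Dll4+/- replicate 1 and 12.6 to 15.3 FPKM elsewhere.

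The subunits of the MCM ring, which assemble one to one, were not equally low in Dll4+/- replicate 1. Mcm7 was 2.92-fold lower there, the smallest fold of the 50 genes against the median of the other libraries, and Mcm6 4.78-fold, while Mcm2, Mcm3 and Mcm5 were 10.04-, 10.4- and 11.7-fold lower. Mcm7 had 9.76, 29.6, 30.6 and 24.2 FPKM in Dll4+/- lungs, against 28.8, 28.5, 28.3 and 26.4 FPKM in Dll4+/+ lungs. It made up 37.3% of the summed FPKM of Mcm2 to Mcm7 in Dll4+/- replicate 1 and 17.8 to 19.4% in the remaining Dll4+/- lungs, against 17.4 to 17.8% in Dll4+/+ lungs. Mcm5 made up 7.50% in Dll4+/- replicate 1 and 12.8 to 14.9% in the remaining Dll4+/- lungs, against 14.0 to 14.8% in Dll4+/+ lungs.

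**Figure D5:**
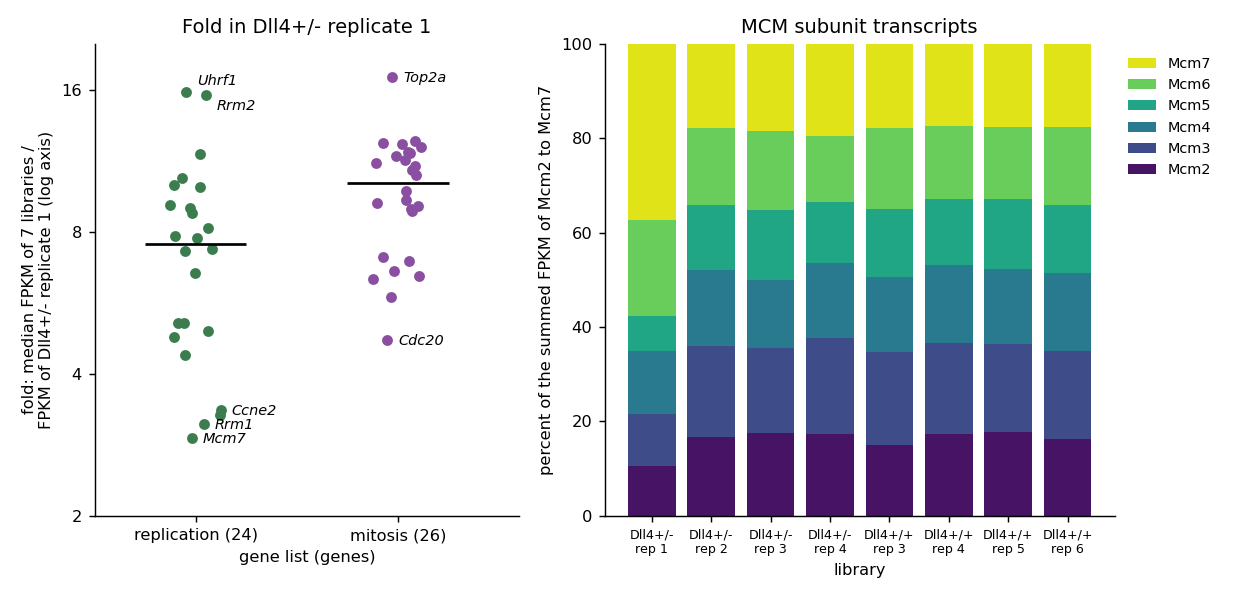
Left, fold of each gene in Dll4+/- replicate 1 (median FPKM of the other 7 libraries over that library, log axis), with the list median as a line (7.55 for replication, 10.1 for mitosis). Right, share of each subunit in the summed FPKM of Mcm2 to Mcm7 by library, Dll4+/- left of Dll4+/+, where Mcm7 takes 37.3% in Dll4+/- replicate 1 and 17.4 to 19.4% elsewhere.

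Of the genes that switch the helicase on, Gins1, a GINS subunit, was the most abundant, with 1.67, 13.7, 11.3 and 12.2 FPKM in Dll4+/- lungs, against 17.5, 14.5, 13.1 and 12.1 FPKM in Dll4+/+ lungs (log2 fold change -0.77, SE 0.48, limma adjusted p = 0.811). Its log2 fold change without Dll4+/- replicate 1 was -0.18 (SE 0.13). Cdc45, the other helicase partner, was 8.13-fold and Gins2 8.96-fold lower in Dll4+/- replicate 1. Pcna, the sliding clamp and the most abundant of the 50 genes, had 20.2, 109, 105 and 72.8 FPKM in Dll4+/- lungs, against 120, 99.0, 99.1 and 99.4 FPKM in Dll4+/+ lungs (76.9 ± 41.2 and 104 ± 10.3, SD, n = 4 each). It was 4.93-fold lower in Dll4+/- replicate 1. Pole, the catalytic subunit of the leading-strand polymerase, was 9.93-fold lower there and had 0.535, 5.92, 6.51 and 4.18 FPKM in Dll4+/- lungs, against 3.28, 5.31, 5.36 and 5.04 FPKM in Dll4+/+ lungs. The fold change of Pole on log2(FPKM + 1), a scale that understates low genes, was -0.33 (SE 0.45, limma adjusted p = 0.851). It turned to 0.19 (SE 0.18) without Dll4+/- replicate 1. The primase subunit Prim1 was 8.75-fold and the polymerase alpha subunit Pola1 7.76-fold lower in Dll4+/- replicate 1, and the clamp loader subunits Rfc3 and Rfc4 3.26-fold and 5.13-fold.

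Ribonucleotide reductase, which makes the building blocks of DNA, showed a wide split between its subunits in Dll4+/- replicate 1. Rrm2, the small subunit whose supply follows S phase, had 2.85, 44.1, 44.4 and 36.9 FPKM in Dll4+/- lungs, against 40.1, 46.4, 49.5 and 44.4 FPKM in Dll4+/+ lungs (log2 fold change -0.98, SE 0.70, limma adjusted p = 0.811). Rrm1, the large subunit, had 8.52, 28.0, 27.4 and 22.8 FPKM in Dll4+/- lungs, against 26.9, 25.6, 26.6 and 24.9 FPKM in Dll4+/+ lungs. The ratio of Rrm2 to Rrm1 was 0.335 in Dll4+/- replicate 1 and 1.58 to 1.62 in the remaining Dll4+/- lungs, against 1.49 to 1.86 in Dll4+/+ lungs. Tyms, thymidylate synthase, was 7.29-fold lower in Dll4+/- replicate 1.

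Among the genes of the entry into S phase, Uhrf1, which passes DNA methylation on to the new strand, had 1.76, 27.4, 28.9 and 27.2 FPKM in Dll4+/- lungs, against 20.1, 28.2, 28.2 and 27.8 FPKM in Dll4+/+ lungs. It was 15.8-fold lower in Dll4+/- replicate 1, and its log2 fold change of -0.74 (SE 0.69, limma adjusted p = 0.812) turned to 0.10 (SE 0.13) without that library. E2f1 had 4.32 FPKM in Dll4+/- replicate 1 and 17.2 to 20.3 FPKM elsewhere. Ccne1 was 9.12-fold lower in Dll4+/- replicate 1 and Ccne2 3.35-fold. Ccne2 had 1.58, 7.26, 5.29 and 2.73 FPKM in Dll4+/- lungs, against 5.44, 5.12, 5.43 and 5.02 FPKM in Dll4+/+ lungs. The ratio of Ccne2 to Ccne1 was 2.16, 1.001, 0.931 and 0.434 in Dll4+/- lungs, against 0.702 to 0.842 in Dll4+/+ lungs. Ccne2 was also the gene that stayed less than 2-fold below the lowest of the other libraries in Dll4+/- replicate 1.

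Of the genes that drive entry into mitosis, Ccnb2, a B-type cyclin, had 4.52, 43.0, 39.7 and 33.6 FPKM in Dll4+/- lungs, against 53.9, 38.9, 42.9 and 39.96 FPKM in Dll4+/+ lungs (30.2 ± 17.6 and 43.9 ± 6.86, SD, n = 4 each, log2 fold change -0.88, SE 0.58, limma adjusted p = 0.811). Cdk1, the kinase that the cyclins bind, had 4.42, 28.4, 27.0 and 32.1 FPKM in Dll4+/- lungs, against 38.0, 30.4, 27.0 and 27.5 FPKM in Dll4+/+ lungs. The kinase was thus not low in Dll4+/- replicate 4, where Ccnb1 had 12.9 FPKM, against 16.6 to 18.8 FPKM in Dll4+/+ lungs. The ratio of Ccnb1 to Cdk1 was 0.367, 0.757, 0.786 and 0.401 in Dll4+/- lungs, against 0.488 to 0.695 in Dll4+/+ lungs. Foxm1, a transcription factor of mitosis genes, had 2.05, 13.4, 12.8 and 11.6 FPKM in Dll4+/- lungs, against 8.54, 13.01, 13.7 and 14.0 FPKM in Dll4+/+ lungs (log2 fold change -0.49, SE 0.46, limma adjusted p = 0.812). Ccna2, the cyclin of S phase and early mitosis, was 12.3-fold lower in Dll4+/- replicate 1.

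The mitotic kinases and checkpoint genes were 5.81-fold (Aurka) to 12.1-fold (Bub1) lower in Dll4+/- replicate 1. Plk1, a kinase of many mitotic steps, had 3.55, 23.2, 28.2 and 24.6 FPKM in Dll4+/- lungs, against 26.2, 22.8, 26.1 and 23.95 FPKM in Dll4+/+ lungs (log2 fold change -0.60, SE 0.52, limma adjusted p = 0.811, and 0.03, SE 0.10, without Dll4+/- replicate 1). Bub1b, a spindle checkpoint protein, had the log2 fold change nearest 0 of the mitosis genes (-0.48, SE 0.48, limma adjusted p = 0.812), with 1.44, 11.9, 12.7 and 8.82 FPKM in Dll4+/- lungs, against 10.2, 10.2, 12.1 and 8.89 FPKM in Dll4+/+ lungs. Ttk was 11.4-fold, Aurkb 11.2-fold and Birc5 9.73-fold lower in Dll4+/- replicate 1.

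The anaphase-promoting complex ends mitosis with the E2 enzyme Ube2c and the activator Cdc20. Ube2c had 5.41, 48.3, 41.1 and 49.6 FPKM in Dll4+/- lungs, against 61.8, 49.7, 44.4 and 47.2 FPKM in Dll4+/+ lungs (log2 fold change -0.84, SE 0.59, limma adjusted p = 0.811). Cdc20 had 10.1, 47.5, 47.1 and 35.9 FPKM in Dll4+/- lungs, against 55.3, 48.9, 50.7 and 43.3 FPKM in Dll4+/+ lungs. The activator was 4.71-fold lower in Dll4+/- replicate 1, the smallest fold among mitosis genes against that median, and the enzyme 8.92-fold. Their ratio, Ube2c to Cdc20, was 0.537 in Dll4+/- replicate 1 and 0.872 to 1.38 in the remaining Dll4+/- lungs, against 0.876 to 1.12 in Dll4+/+ lungs.

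The spindle and kinetochore genes were 9.33-fold (Nusap1) to 12.4-fold (Cenpf) lower in Dll4+/- replicate 1, a narrow range. Tpx2, which activates Aurka on the spindle, had 1.65, 21.1, 19.2 and 16.02 FPKM in Dll4+/- lungs, against 21.05, 19.8, 20.4 and 20.8 FPKM in Dll4+/+ lungs (log2 fold change -0.85, SE 0.59, limma adjusted p = 0.811, and -0.13, SE 0.11, without Dll4+/- replicate 1). Kif11, the kinesin that pushes the spindle poles apart, had 0.743, 9.502, 7.88 and 5.57 FPKM in Dll4+/- lungs, against 8.75, 9.12, 8.57 and 9.497 FPKM in Dll4+/+ lungs. Prc1, which bundles the microtubules of the midzone, had 2.49, 22.99, 22.95 and 17.6 FPKM in Dll4+/- lungs, against 20.7, 23.9, 23.05 and 22.5 FPKM in Dll4+/+ lungs (log2 fold change -0.76, SE 0.54, limma adjusted p = 0.811).

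Top2a, the topoisomerase that untangles sister chromosomes, had the largest fold of the 50 genes against the median of the other libraries. It had 2.28, 38.9, 39.96 and 27.1 FPKM in Dll4+/- lungs, against 34.8, 38.3, 43.1 and 38.8 FPKM in Dll4+/+ lungs (27.1 ± 17.5 and 38.8 ± 3.39, SD, n = 4 each). Dll4+/- replicate 1 was thus 17.0-fold lower than the median of the rest, and the log2 fold change over all libraries was -1.01 (SE 0.70, limma adjusted p = 0.811, exact permutation p = 0.314). Mki67, the marker of dividing cells used in tissue stains, was 10.5-fold lower, with 2.40, 27.7, 24.3 and 25.3 FPKM in Dll4+/- lungs, against 21.2, 25.7, 26.7 and 24.9 FPKM in Dll4+/+ lungs. The 50 genes had 29 (Ccne1) to 675 (Rrm1) fragments in that library, counted at the smallest transcript length that gives whole fragments, so the folds of the lowest genes rest on few fragments. Tyms, Pcna, Ccnb1 and Ccnb2 have annotated pseudogene copies, so part of their reads is uncertain.

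Other genes of the pathways, on further lists of 40 replication and 40 mitosis genes, were low in the same library. Of 39 further replication genes tested, 39 were below 0 (median log2 fold change -0.37), 0 passed the test, and 24 were below 0 without Dll4+/- replicate 1 (median -0.02). Of 40 further mitosis genes, 40 were below 0 (median -0.64), 0 passed the test, and 28 were below 0 without that library (median -0.07). Of all genes, 54.1% were below 0 with all libraries and 48% without Dll4+/- replicate 1. At least 4-fold below all other libraries in Dll4+/- replicate 1 were 35 of the 40 mitosis and 13 of the 39 replication genes, against 1.86% of all genes. Gins4, the partner of Gins1, had 16.5 FPKM in Dll4+/- replicate 1 and 17.7 to 28.8 FPKM elsewhere, and was chosen after its values were seen. Outside the 50 genes, Cwc22, a splicing factor, lay farthest below the other libraries in Dll4+/- replicate 1. It had 7.28 FPKM there and 126 to 136 FPKM in the remaining Dll4+/- lungs, against 150 to 246 FPKM in Dll4+/+ lungs. Next came Fam64a, Ckap2, Pbk, 2810417H13Rik, Kifc1, Cks2, Melk, Cenph and Mxd3. Of 253 genes at least 4-fold below, 40 were among the 50 and 48 among the further replication and mitosis genes. A further 4 were Rb, E2f and MuvB genes, 1 was an inhibitor of cyclin-dependent kinases, and 160 were in none of the lists. The 160 hold Cwc22, 2810417H13Rik, Kifc1, Cenph and Mxd3. The lists are not complete, so the 160 were not shown to lie outside cell division.

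The regulators upstream were mixed in Dll4+/- replicate 1. Cdkn1a, the p21 inhibitor of cyclin-dependent kinases, had 155, 19.6, 22.6 and 41.7 FPKM in Dll4+/- lungs, against 23.5, 27.7, 26.2 and 25.5 FPKM in Dll4+/+ lungs. Cdkn1c, the p57 inhibitor, had 236, 67.2, 70.9 and 82.0 FPKM in Dll4+/- lungs, against 90.2, 77.5, 73.0 and 73.5 FPKM in Dll4+/+ lungs. Cdkn1b and Cdkn2b were also highest in that library, while Cdkn2c, at 6.88 FPKM there and 24.2 to 41.6 FPKM elsewhere, and Cdkn3 were lowest there. Of the 8 inhibitors, 4 were highest and 3 lowest in Dll4+/- replicate 1, and 0 passed the test. Of all genes, 20.9% had their highest value and 35.3% their lowest in that library. The cyclin D3 gene Ccnd3 had 77.4 FPKM in Dll4+/- replicate 1 and 29.2 to 46.7 FPKM elsewhere, and its partner Cdk4 49.7 FPKM there and 104 to 154 FPKM elsewhere. Of 19 Rb, E2f and MuvB genes, 13 were lowest and 3 highest in Dll4+/- replicate 1. E2f8, an E2F repressor made in S phase, had 0.601 FPKM there and 5.36 to 7.94 FPKM elsewhere, and E2f4, the E2F of resting cells, 32.0 FPKM there and 34.2 to 38.8 FPKM elsewhere. Of 9 p53 targets tested, 3 were highest and 2 lowest in that library.

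Markers of some other cell types and some other gene groups also differed in the same library. Of all genes, 20.9% had their highest value and 35.3% their lowest in Dll4+/- replicate 1. Neutrophil markers summed to 1506 FPKM in Dll4+/- replicate 1 and 112 to 275 FPKM in the remaining Dll4+/- lungs, against 148 to 229 FPKM in Dll4+/+ lungs, and 7 of 8 tested were highest there, with Elane at 0.658 FPKM in it and at 0 to 0.379 FPKM elsewhere. Glucocorticoid-induced genes other than Cdkn1a, which is given above, summed to 879 FPKM in Dll4+/- replicate 1 and 286 to 446 FPKM in the remaining Dll4+/- lungs, against 340 to 398 FPKM in Dll4+/+ lungs, with 6 of 8 tested highest there. Fkbp5, a chaperone of the glucocorticoid receptor, had 62.7 FPKM in Dll4+/- replicate 1 and 5.87 to 6.55 FPKM elsewhere, and Zbtb16 27.5 FPKM there and 0.0659 to 0.789 FPKM elsewhere. Alveolar type I markers summed to 2617 FPKM in Dll4+/- replicate 1 and 1307 to 1694 FPKM in the remaining Dll4+/- lungs, against 1599 to 1868 FPKM in Dll4+/+ lungs, with 8 of 10 highest there. Of 10 endothelial markers 7 were highest in Dll4+/- replicate 1. In Dll4+/- replicate 4, 8 were the lowest of the other libraries, against 28.7% of all genes. The latter library had the highest sum of alveolar type II markers. That sum was 14018, 21838, 17400 and 41504 FPKM in Dll4+/- replicates 1 to 4, against 19979 to 29509 FPKM in Dll4+/+ lungs. It was lowest in replicate 1, but most of it was Sftpc, at 11181 FPKM in replicate 1 and 36845 FPKM in replicate 4. Of the 10 type II markers 3 were lowest of all libraries in replicate 1, against 35.3% of all genes. The sum of hypoxia and glycolysis genes was 796 FPKM in Dll4+/- replicate 1, 835 FPKM in replicate 4, and 618 and 635 FPKM in replicates 2 and 3, against 580 to 645 FPKM in Dll4+/+ lungs, and 5 of 10 were highest in replicate 1. Macrophage markers summed to 231 FPKM in Dll4+/- replicate 1 and 115 to 148 FPKM in the remaining Dll4+/- lungs, against 120 to 155 FPKM in Dll4+/+ lungs. Only 3 of 9 were highest in replicate 1, against 20.9% of all genes. Fabp4 had 72.3 FPKM there and 8.77 to 55.9 FPKM elsewhere, and Chil3 43.0 FPKM there and 1.82 to 4.68 FPKM elsewhere. Cd68, Csf1r, C1qa, C1qb, Mrc1 and Marco lay within the range of the other libraries. The part of these genes in the levels of replication and mitosis genes was not tested.

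By labelled sex, Dll4+/- replicates 1 and 4 were both labelled male, and Dll4+/- replicate 2 counts as female here by its label. Within libraries labelled male, the 50 genes had a median log2 fold change of -1.33, 18 had an unadjusted p under 0.05, against 17.2% of all genes, and 0 an adjusted one, against 1 of all genes (smallest limma adjusted p = 0.152, Dll4+/- replicates 1 and 4 against Dll4+/+ replicates 3 and 6). Within libraries labelled female, 23 of 50 were below 0, against 48% of all genes, and 0 had an unadjusted p under 0.05, against 1.1% of all genes. Of the 50 genes 0 passed the limma test of the difference between the labelled sexes (smallest adjusted p = 0.554), against 3 of all genes. In that test 5 of the 50 had an unadjusted p under 0.05, against 7.61% of all genes. By position, 9 of the 50 genes lie on chromosome 2 with Dll4, the nearest being Nusap1 at 293 kb and Bub1b at 728 kb from it. Their median log2 fold change was -0.74, and -0.13 without Dll4+/- replicate 1.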

How the data were processed

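Total RNA of whole right lungs from P6 pups was made into poly-A libraries and sequenced in paired-end reads. Per the labels, CASAVA and STAR were used on GRCm38.p4 (the submitters' processing notes, without versions). The sources used here do not say whether counting used strand. The authors deposited FPKM values per gene and library, together with ratios of group means, log2 ratios and p-values of their own comparison, which were not used. The members and lists were chosen with earlier results of these data known.

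The 13610 of 35275 genes that reached 1 FPKM in 4 or more libraries were tested on log2(FPKM + 1) with limma 3.58.1 in R 4.3.3, with a mean-variance trend and Benjamini-Hochberg adjustment over all 13610 genes (threshold 0.05). A pseudocount of 1 understates the change of low genes. Values of 0.005 in 239 genes were set back to 0. Exact permutation tests of single genes were two-sided, and 4 against 4 libraries allow a p of 0.0286 at the lowest. Whole fragments were recovered for 100% of the genes tested (tolerance 0.01), 1454 of them at the annotated exon length, so for the others the recovered counts may be wrong by a multiple that is the same in each library. p-values measure the spread between these pups. Named genes were the most abundant of each of 11 roles, the 2 most and the 2 least negative genes of each list, and the 10 other genes farthest below in Dll4+/- replicate 1. The limma fit of genotype was tested on simulated data. Alternatives are given in the closing section. Promoters came from RefSeq (GRCm38.p6).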

Additional observations from a re-analysis of the deposited data

Results flagged for a closer look

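Within the 4 Dll4+/- lungs, the gap of the lowest or highest library to its nearest neighbour, as a share of the group's range, was past Dixon's critical value for 4 samples in both lists. It was 0.845 for the mean level of the replication genes, 0.884 for the mitosis genes and 0.872 for their difference, each lowest in Dll4+/- replicate 1. Among replication genes the share was 0.898 for Mcm3, 0.893 for Gins1, 0.927 for Rrm2, 0.975 for Uhrf1 and 0.857 for Cdc6. Among mitosis genes it was 0.885 for Ccnb2, 0.899 for Plk1, 0.91 for Ube2c, 0.878 for Tpx2, 0.867 for Prc1, 0.851 for Top2a and 0.913 for Foxm1. In all of these Dll4+/- replicate 1 was the low library. It was the high library for Cdkn1c (0.842), Fkbp5 (0.972) and Zbtb16 (0.912).

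Of the 50 genes, 32 were past the value in Dll4+/- lungs, each lowest in replicate 1, against 8.85% of all genes in Dll4+/- lungs in either direction. Of all 13610 genes, 543 were past it with Dll4+/- replicate 1 as the lowest. That library was already known to stand apart in these genes, and the 50 genes share the same pups. The count of 32 is thus a description and no test. Of the same 50 genes, 6 were past it in Dll4+/+ lungs, against 11.3% of all genes. Chance flags about 1 in 20 groups. In Dll4+/+ lungs the replication mean was lowest in replicate 6 (0.887). Dll4+/+ replicate 3 was the highest for Pcna (0.981) and Fkbp5 (0.902), and the lowest for Uhrf1 (0.965), Pole (0.868), Foxm1 (0.847), Cdkn1b (0.859), Ccnd3 (0.8998) and Zbtb16 (0.8292).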

How the results depend on the processing

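None of the 50 genes had an adjusted p under 0.05 in any of 19 alternatives. The count over all genes, 0 as reported, was 3 with library weights, 18 with the replicate block, 1 within labelled females and 1 within labelled males, and 0 to 0 when each library was left out in turn. At an unadjusted p under 0.05 it was 457 as reported, 385 on TPM, 411 by voom, 438 with a pseudocount of 0.1 and 933 of 24743 genes with no filter. The pairing by the shared numbers 3 and 4 was not borne out (correlations of deviations -0.228 and -0.056), so the block rests on a number only. Under it 42 of the 50 genes were below 0. Of the 50, 23 were below 0 within labelled females and 19 without Dll4+/- replicates 1 and 4. Leaving out each library gave 39 to 50 genes below 0, with list medians of -0.84 to -0.07 (replication) and -0.95 to -0.08 (mitosis), the highest in each case without Dll4+/- replicate 1. The log2 fold changes of the 16 named genes kept their sign in 269 of 304 results. It turned within labelled females for Mcm3 (0.0042), Pcna (0.11), Ccnb2 (0.016), Plk1 (0.065), Tpx2 (0.0027), Mcm5 (0.024), Pole (0.19), Cdc6 (0.057) and Bub1b (0.14). It turned without Dll4+/- replicates 1 and 4 for Mcm3 (0.022), Pcna (0.044), Uhrf1 (0.12), Plk1 (0.047), Prc1 (0.027), Top2a (0.028), Mcm5 (0.049), Pole (0.34), Cdc6 (0.14), Foxm1 (0.11) and Bub1b (0.24). With library weights it turned for Pcna (0.0060), Pole (0.12), Cdc6 (0.066) and Bub1b (0.14), and with the replicate block for Uhrf1 (0.23), Plk1 (0.10), Pole (0.26), Foxm1 (0.19) and Bub1b (0.053). Leaving out each library in turn, it ranged from -1.04 to 0.10 for Uhrf1, -0.86 to 0.030 for Plk1, -0.58 to 0.19 for Pole, -0.48 to 0.069 for Cdc6, -0.69 to 0.053 for Foxm1 and -0.74 to 0.093 for Bub1b, above 0 only without Dll4+/- replicate 1. With 4 libraries a genotype, 1 library sets these values, and the cause was not tested.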
